A study of Mus musculus with 6 samples.

Results

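Open chromatin sites inside the introns of protein-coding genes, shared by every library, numbered 5418 of 63840 merged regions, or 8.49%. They were chosen by merging the peaks of all 6 libraries wherever they overlapped by at least 1 bp and keeping regions with a peak in each library. A kept region lay more than 1 kb from every transcription start site (TSS) of a protein-coding gene in GENCODE M21, and its midpoint fell within such a gene but in none of its exons. Of the 22403 regions found in all 6 libraries, 24.2% were intronic by this rule, while 10372 lay near a TSS, 6098 were intergenic and 515 fell in exons. The TSS and intergenic regions served as the reference.

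Chromatin accessibility was profiled by ATAC-seq, in which a transposase cuts open DNA and tags it for sequencing. Marrow of tibiae and femora of untreated C57BL/6 mice was plated, and the adherent skeletal stem and progenitor cells (SSPCs) were analyzed at passage 1. There were 3 libraries labelled young and 3 labelled middle-aged, with no genotype or transgene named in either group. The labels say that cells came from at least 3 mice without saying which animal gave which library, so p-values measure only the spread between these libraries.

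Introns are spliced out of the transcript, yet they hold many enhancers, short stretches of DNA that transcription factors bind to raise transcription of the surrounding or a more distant gene. Bound factors displace nucleosomes, which makes such sites accessible to the transposase. Families often found at accessible sites away from promoters include AP-1, which responds to stress and growth signals, RUNX, which acts in bone and blood, and ETS factors such as PU.1, the master regulator of myeloid cells.

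The highest region of each of 6 genes with many shared intronic regions is shown first, so that the kind of DNA concerned can be seen. The windows hold 150 bases around the mean peak summit, on the plus strand of mm10. Capitals mark matches to a motif on either strand: AP-1 (TGANTCA), CRE (TGACGTCA), RUNX (TGTGGTT) and PU.1/ETS (GAGGAAGT) occurred here, while TEAD (ACATTCC), C/EBP (TTGCNNCAA), EBF (CCCNNGGG), CTCF (CNAGNGGGC) and RBPJ (GTGGGAA) were searched and did not. The windows lie at chr13:109822516-109822665 (Pde4d), chr2:145588124-145588273 (Slc24a3), chr16:84990034-84990183 (App), chr9:32508802-32508951 (Fli1), chr11:8566580-8566729 (Tns3) and chr13:20208241-20208390 (Elmo1).
Pde4d: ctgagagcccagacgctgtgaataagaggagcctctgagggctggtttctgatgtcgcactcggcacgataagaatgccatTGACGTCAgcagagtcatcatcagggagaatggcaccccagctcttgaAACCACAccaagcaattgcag
Slc24a3: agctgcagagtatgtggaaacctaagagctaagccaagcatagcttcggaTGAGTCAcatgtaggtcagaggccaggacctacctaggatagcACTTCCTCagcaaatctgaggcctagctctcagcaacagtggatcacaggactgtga
App: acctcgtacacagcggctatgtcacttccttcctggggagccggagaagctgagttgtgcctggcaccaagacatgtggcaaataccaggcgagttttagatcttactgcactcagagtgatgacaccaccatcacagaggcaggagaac
Fli1: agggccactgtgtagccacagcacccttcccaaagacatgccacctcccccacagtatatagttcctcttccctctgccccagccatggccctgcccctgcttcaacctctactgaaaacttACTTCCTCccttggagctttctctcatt
Tns3: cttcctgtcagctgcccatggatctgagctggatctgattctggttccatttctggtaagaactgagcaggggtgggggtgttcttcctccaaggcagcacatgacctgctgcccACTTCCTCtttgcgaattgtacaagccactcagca
Elmo1: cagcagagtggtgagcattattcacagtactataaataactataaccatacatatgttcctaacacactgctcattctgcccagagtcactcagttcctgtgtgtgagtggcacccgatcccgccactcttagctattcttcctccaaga
The Slc24a3 window carried AP-1 letters at bases 51 to 57 and PU.1/ETS letters at bases 94 to 101, and the Fli1 and Tns3 windows each carried 1 PU.1/ETS match. In Pde4d a CRE match stood at bases 82 to 89 and a RUNX match at bases 130 to 136, and the App and Elmo1 windows held none of these motifs. The other leading genes are not shown. Their windows held none of the motifs in Gm20388, Fgfr2, Nav2, Zfhx3 and Fat3, and EBF letters alone in Maml3. The windows shown are thus richer in matches than those left out. A match is a stretch of letters and does not show that a factor was bound.

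Across all 5418 windows of 300 bp, AP-1 letters were present in 25.7%, close to the 26.1% of shared intergenic windows and above the 4.73% of shared TSS windows. The share was 19.1% over all 63840 regions and 23.1% among the 6006 intronic regions called in a single library. PU.1/ETS letters showed a wider gap within introns, at 15.9% of shared regions against 7.34% of single-library regions, with 13.3% in shared intergenic and 3.73% in TSS windows and 8.09% over all regions. RUNX letters stood in 14.5% of the shared intronic windows, 14.0% of the single-library ones, 3.35% of TSS windows and 11.4% of all. TEAD letters went the other way, at 4.96% against 7.16% of single-library intronic windows. The reading is a description, since peak calls chose both sets and the sets differ in height.

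The GC box (GGGCGG), a common promoter element, separated introns from promoters most. It stood in 9.58% of shared intronic windows, 14.2% of shared intergenic windows and 72.8% of TSS windows, against 23.0% of all windows. The E-box (CAGCTG) was found in 23.0%, 22.5% and 15.7% of these classes and in 20.3% of all, and the NFI letters (TTGGCA) in 17.8%, 17.9% and 9.5% and in 16.7% of all. The median base composition was 48.7% G and C in the shared intronic and intergenic windows and 65.0% in the TSS windows. Repeats covered a median of 7.67% of the intronic window, and 1.35% of the windows were at least 50% repeat. Letters of some motifs can overlap, such as the GC box with EBF or CTCF letters and NFI with the CCAAT box, so the shares are not exclusive.

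**Figure D1:**
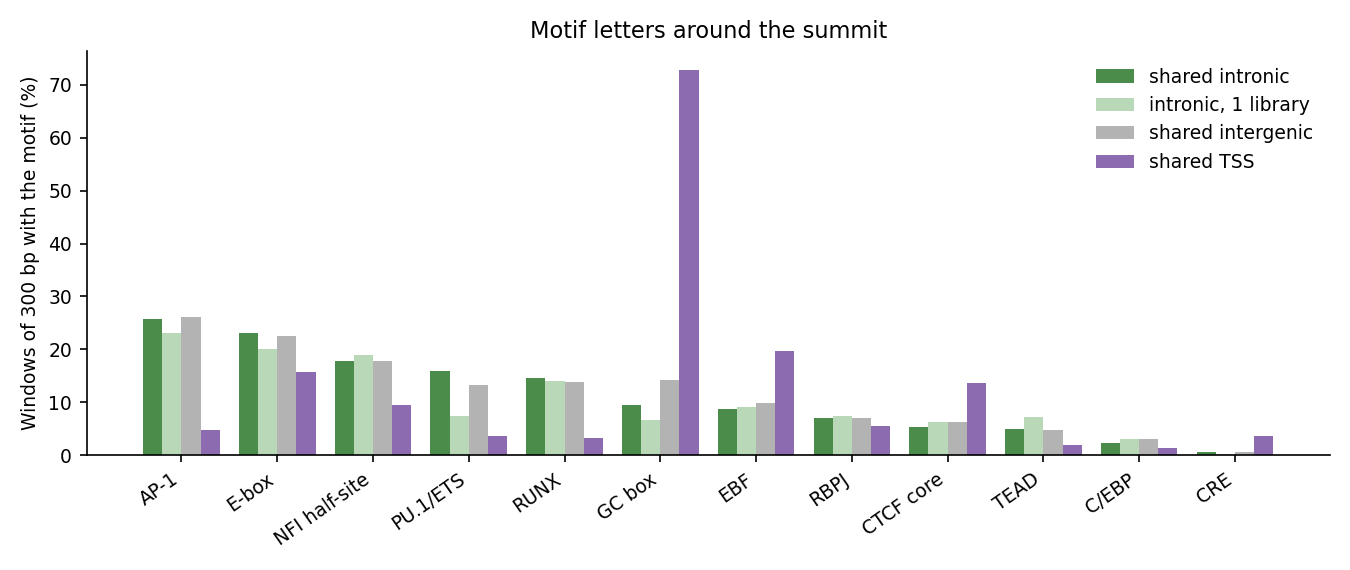
Share of 300 bp windows around the summit (y axis, percent) holding each motif's letters on either strand (x axis), for shared intronic regions, intronic regions of 1 library, shared intergenic regions and shared TSS regions (bars). Intronic and intergenic bars stand side by side for most motifs, and the TSS bar is far higher for the GC box, at 72.8% against 9.58%.

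Motif matches gathered near the summit for some factors only. Of 915 PU.1/ETS matches in the shared intronic windows, 61.6% lay within 50 bp of the summit, as did 56.8% of 1632 AP-1 matches and 48.4% of 856 RUNX matches. For TEAD this was 30.7% of 280 matches, for the NFI letters 32.1% of 1052 and for EBF 32.5% of 547. Among single-library intronic regions the PU.1/ETS share was 60.9%, so the position of these letters was alike in both sets while their frequency was not. Within the shared intronic regions, the 1355 with the highest peaks held AP-1 letters in 29.1% of windows and GC box letters in 13.7%, and the 1355 with the lowest in 24.4% and 7.08%.

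The regions lay well away from promoters. The median distance from the region to the nearest protein-coding TSS was 19401 bp, with the middle 50% between 8335 and 46190 bp. The band of 10 to 50 kb held 47.4% of them, 14.7% lay within 5 kb and 9.49% beyond 100 kb, up to 963946 bp. Shared intergenic regions reached further, with 23.1% beyond 100 kb. In 18.7% of the intronic regions the nearest TSS belonged to a gene other than the host, so a region's host is its address and need not be its target. For the 136 regions in more than 1 gene only 1, as a rule the longest, counted as host here. The share therefore includes regions whose nearest TSS belonged to another of their host genes. A further 211 regions, 3.89%, lay within 1 kb of the TSS of a noncoding gene, which the selection did not exclude.

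Height was slightly lower farther from a TSS. Height is the read pileup at the summit divided by the library's genome-wide background, averaged over the 6 libraries on the log2 scale. The 271 regions 1 to 2 kb from a TSS had a median height of 13.7-fold, the 525 regions at 2 to 5 kb 13.1-fold, and every band beyond 5 kb between 11.2-fold and 11.6-fold. Intergenic regions showed the same course, from 13.9-fold to between 11.6-fold and 12.2-fold. Rank within the peak list stayed between 57.6 and 60.2 in all intronic bands.

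**Figure D2:**
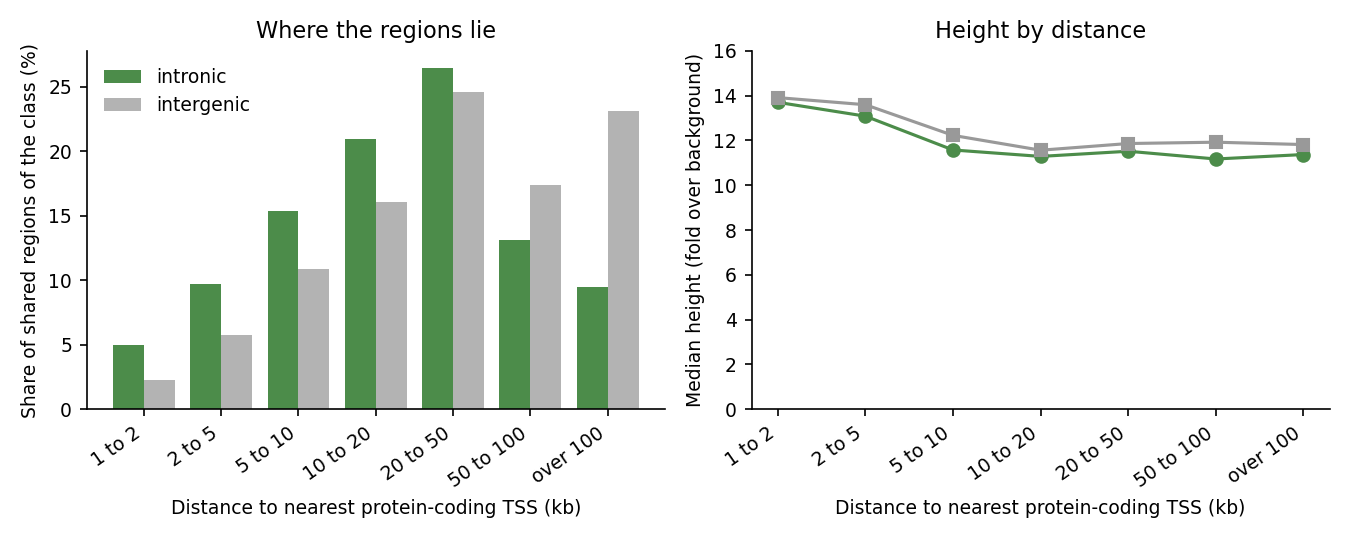
Left, share of shared intronic and shared intergenic regions (y axis, percent) by distance to the nearest protein-coding TSS (x axis, kb); right, their median height in fold over background. The largest intronic band is 20 to 50 kb, and height declines from 13.7-fold nearest the TSS to 11.4-fold beyond 100 kb.

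Within genes, first introns held a larger share of the regions than of the intron length. Of 5324 regions that could be assigned an intron number, 32.3% stood in the first intron and 18.1% in the second. The number was read in the longest coding transcript around the region. First introns made up 26.3% of the eligible intron length, read in the longest coding transcript of each gene, so the shares do not rest on the same transcripts throughout. Regions in several genes were numbered in 1 of them, and all 30 regions of the long Gm20388 model counted as first intron. Region width had a median of 445.5 bp, against 465 bp for shared intergenic and 706.5 bp for TSS regions. Peak summits of the 6 libraries fell close together, with a median spread of 67 bp, and 73.9% of regions had all summits within 100 bp. In 5130 regions every library contributed a single peak. Neighboring regions were usually far apart, with a median gap of 109234 bp, although 16% were followed by another within 10 kb.

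The regions were spread over 3057 host genes, 13.9% of 21951 protein-coding genes. A single region was found in 1873 of them and 175 genes held 5 or more, which together accounted for 1128 regions. Longer genes held more, as Spearman's rho between the number of regions and eligible intron length was 0.41 across 18235 genes, which are not independent of each other. Length did not set the number alone: 1059 of 2179 genes with over 100 kb of eligible intron held no shared region. The density below is the number of regions per 100 kb of eligible intron, which was 0.591 over all protein-coding genes.

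The largest count belonged to Gm20388, a gene model drawn across 4435 kb of chromosome 8 that reads through several genes. It held 30 regions, 17 of which also lay in an intron of another gene, and its density was 0.708. Fgfr2, encoding a fibroblast growth factor receptor, is drawn across 2961 kb in this annotation and 12 of its 16 regions also lay in another gene's intron. Its density was 0.563. Both densities were close to that of all genes.

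Among genes whose regions lay in no other gene, Pde4d, encoding a phosphodiesterase that breaks down cyclic AMP, led with 17 regions over 1504 kb, at a density of 1.15. Nav2, which encodes a cytoskeleton-associated navigator protein, held 14 at 2.11, and Slc24a3, for a sodium, potassium and calcium exchanger, held 13 at 2.78. App, for the amyloid precursor protein, held 12 within 197 kb at 5.71, and Zfhx3, a zinc finger homeobox transcription factor, held 12 at 1.21. Tns3 (tensin 3, a focal adhesion protein), Maml3 (a coactivator of Notch signaling), Elmo1 (an activator of Rac in cell migration and engulfment) and Fat3 (an atypical cadherin) held 10 each, at 4.53, 2.45, 2.01 and 1.76. Fhit also held 10, at 0.624, and came last in this tie, which was ordered by density.

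Fli1, an ETS factor of blood and endothelial cells, stood out by density. Its 11 regions lay within 68.2 kb at 9.54 per 100 kb, 9 of them in the first intron, though its TSS had a peak in only 3 of the 6 libraries. The nearest region began 1051 bp from the TSS, just past the limit of the rule. Among genes with at least 5 regions, Fli1 was sixth by density. Tnfrsf1b, for the type 2 receptor of tumor necrosis factor, was densest at 17.3 with 5 regions in 28.9 kb of eligible intron. It was followed by Tspan14 (a tetraspanin) at 10.9, Sfi1 (a centrosomal protein) at 10.1, and Fkbp15 and Irak2, a kinase of interleukin-1 receptor signaling, both at 9.71. Most Sfi1 regions stood in deeply covered surroundings with modest enrichment over the local background, as given below, which limits the reading of its density.

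**Figure D3:**
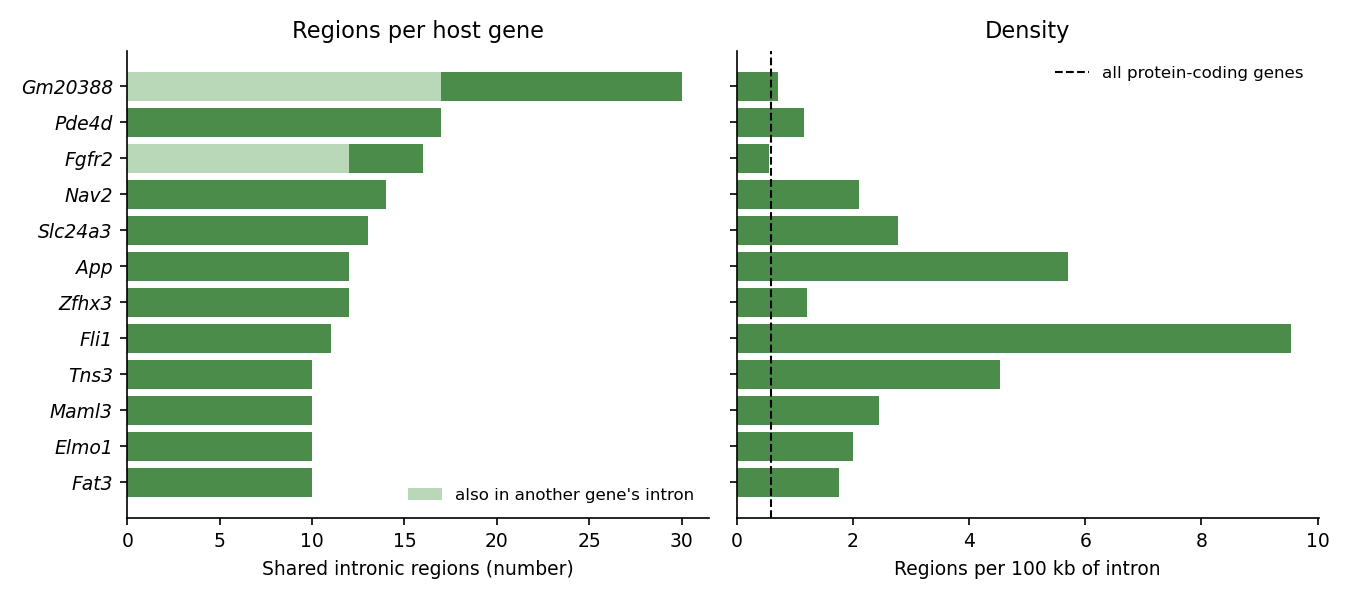
Number of shared intronic regions in the 12 genes with most (left bars, pale where the region also lies in another gene's intron) and their density per 100 kb of eligible intron (right bars). The dashed line is the density over all protein-coding genes, 0.591, and Gm20388 and Fgfr2 lie near it while Fli1 reaches 9.54.

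The regions with the highest pileups came from few places. Of the 6 highest, 4 lay in Sfi1 on chromosome 11, at mean heights of 136.9-fold, 83.8-fold, 75.7-fold and 68.9-fold over the genome-wide background. Against the local background, as the authors' fold enrichment measures it, these were modest. The highest, chr11:3173906-3174619, had a fold enrichment between 3.73 and 6.34, and the lowest of the 4 between 1.61 and 2.09. The area around them was therefore covered deeply in every library. The others were in the predicted gene Gm42906 at 99.8-fold (chr5:151368354-151369138, which overlaps the TSS of a noncoding gene) and in Pard3, a cell polarity gene, at 63.1-fold (chr8:127440604-127441561). Their local fold enrichments of 14.7 to 19.4 and 15.03 to 20.7 were high as well. In all, 645 regions exceeded a mean height of 20-fold and 3621 exceeded 10-fold.

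Lists of marker and pathway genes were then set against these hosts. The genes of a list differ in length, so each count is to be read beside the 13.9% of all genes that hosted a region and their density of 0.591. Of 20 SSPC and marrow niche genes 4 hosted regions, namely Angpt1 with 2 and Pdgfrb, Nt5e and Cd44 with 1 each. The density was 0.394. A TSS peak stood in all 6 libraries for 6 of the 20 genes, namely Kitl, Ebf3, Foxc1, Nt5e, Cd44 and Gas6. It stood in none for another 6, namely Lepr, the receptor used to define marrow SSPCs, Prrx1, Thy1, Ly6a, Vcam1 and Adipoq. The rest, such as Cxcl12 and Pdgfra, had one in some libraries. The labelled cell type was thus only partly visible at its markers.

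Markers of other cells in marrow were counted as well. Of 20 macrophage and myeloid genes 9 hosted 37 regions at a density of 1.497, and 17 had a TSS peak in all 6 libraries, among them Spi1 (PU.1), Itgam, Adgre1 and Cd68. Dock2 had one in 5 libraries, Csf1r in 2 and Cebpe in none. Elmo1 held 10, Cx3cr1, the fractalkine receptor gene, 8 and Runx1 5. Cx3cr1 is drawn across 168 kb in this annotation, and 2 of its 8 regions also lay in another gene's intron. Median height of these regions, as a log2 difference from all shared intronic regions of the library, was between -0.13 and 0 in the young and between -0.34 and -0.04 in the middle-aged libraries. Of other blood genes 4 of 20 hosted 18 regions at a density of 1.98, 11 of them in Fli1 and 3 each in Ikzf1 and Meis1, both transcription factors of blood, with a TSS peak in all 6 libraries for 4 and in none for 11. Of endothelial genes 3 of 15 did, with 6 regions at a density of 0.642, namely Vwf with 3, Erg with 2 and Pecam1 with 1. A TSS peak stood in all 6 libraries for 2 of the 15 endothelial genes and in none for 7, Vwf among the latter. What these cells contributed to the results was not tested, and in such bulk libraries fewer cells of a type and less signal per cell cannot be told apart.

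Pathway genes were counted in the same way. Of 30 actin, adhesion and matrix genes 19 held 48 regions at a density of 1.14, led by Tns3 with 10 and by Ext1, for heparan sulfate synthesis, and Palld, an actin organizer, with 5 each. Of 30 genes of TGF-beta, Hippo and AP-1 signaling 12 held 27 at a density of 1.53, led by Bach2 with 8, the signal transducer Smad3 with 4 and its inhibitory relative Smad7, the densest of 5 genes with 2. Of 30 Notch genes 11 held 36 at a density of 1.84, namely Maml3 with 10, its relative Maml2 with 7, the receptor Notch2 with 4 and the nuclear effector Rbpj with 4 at the head.

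Lineage genes of bone, fat and cartilage came next. Of 20 osteoblast genes 4 hosted 12 regions at a density of 1.27, with Mef2c and Tcf7l2 at 4 and Runx2, the master factor of osteoblasts, at 3, while Sp7 held none and had no TSS peak. Of 20 adipocyte genes 5 hosted 14 at a density of 0.906, led by the fatty acid transporter Cd36 with 5 and by Pparg, the master factor of adipocytes, and Nfia with 3 each. Of 15 chondrocyte genes 5 hosted 15 at a density of 0.757, led by Trps1 with 7 and by Nfatc1 and Sox5, a cartilage transcription factor, with 3 each. No test compared the lists with each other. As a check outside the tissue, 6 of 20 neuronal genes hosted 24 regions, led by Dscam and Dlgap1 with 8 each and Cntnap2 with 4, at a density of 0.149. Of 20 hepatocyte genes 1, Hnf4a, hosted 1 region, at a density of 0.253.

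The libraries differed in depth and length of list before any comparison by age. Background ran from 1.65 extended reads per base in young 3 to 3.75 in young 1, with 2.83 in young 2 and 2.40 to 2.79 in the middle-aged libraries. The lists held 27628 peaks in young 3, 35953 and 43941 in the other young libraries and 46364 to 48344 in the middle-aged ones. Young 3 limited the number of shared regions most: of 2732 intronic regions called in 5 libraries, 73.8% lacked a peak in young 3. Without young 3 there were 7435 shared intronic regions in place of 5418.

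Intronic regions called in fewer libraries had lower peaks, as the selection implies. Regions shared by 6 libraries had a median height of 11.7-fold and a median rank of 58.5, those of 5 libraries 7.97-fold and 37.7, and those of 1 library 5.90-fold and 12.9. The share of intronic regions among regions away from a TSS hardly moved, from 46.5% in 1 library to 45.0% in all 6. Regions with a midpoint in an intron 500 to 1000 bp from a TSS, which the rule left out, had a median height of 12.9-fold over 195 regions, and the 145 kept regions at 1000 to 1500 bp reached 13.8-fold.

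Whether these sites changed between ages was asked first of their height in each library. The median height was 8.80-fold in young 1, 12.01-fold in young 2 and 11.5-fold in young 3. The middle-aged libraries had medians of 13.0-fold, 13.7-fold and 12.9-fold. All middle-aged libraries stood above all young ones, and young 1 was lowest. On the log2 scale the means were 3.42 ± 0.24 (SD, n = 3) and 3.72 ± 0.05, a difference of 0.31 (two-sided exact permutation test, p = 0.1, below which 3 against 3 libraries cannot go). In the same measure shared intergenic regions differed by 0.29 and TSS regions by 0.47, each with groups that did not overlap. Without young 3 the intronic difference was 0.36, and without young 1 it was 0.17.

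The gap between introns and promoters was wider in each middle-aged library than in any young one. This quantity is the median log2 height of intronic regions less that of TSS regions of the same library. A scale factor common to a library cancels in it, but differences in list length do not. The gap was -0.86, -0.91 and -0.80 for the young libraries in the order of their numbers. The middle-aged libraries had values of -1.02, -1 and -1.06. Intronic peaks were thus 53.1% to 57.6% as high as TSS peaks in the young libraries and 48.0% to 50% in the middle-aged ones, without overlap. The means were -0.86 ± 0.06 and -1.03 ± 0.03, a difference of -0.17 (exact permutation test, two-sided p = 0.1, n = 3 per group). With the fold enrichment as deposited, the difference was -0.07 (exact permutation test, p = 0.2). With the best 27628 peaks of each list it was -0.16 (exact permutation test, p = 0.1). The gap was narrowest in young 3, with the shortest list, and widest in middle-aged 3, with the longest. Beyond the setting with equally long lists given above, the part of list length was not tested. Against intergenic regions the gap did not differ beyond the spread, with -0.05 ± 0.02 and -0.04 ± 0.00204 (difference 0.01, exact permutation p = 0.6).

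**Figure D4:**
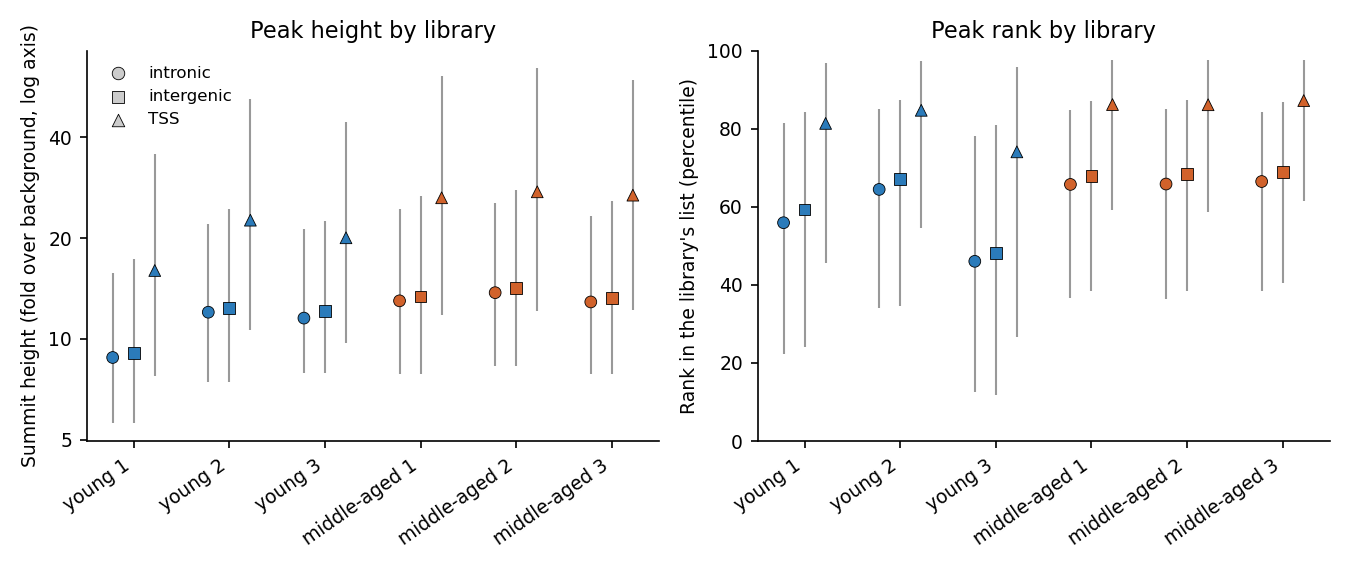
Median height (left, fold over background, log axis) and median rank (right, percentile) of shared intronic, intergenic and TSS regions in each library; points are medians, bars run from the 10th to the 90th percentile of regions, blue is young and orange middle-aged. Intronic and intergenic points move together, from 8.80-fold in young 1 to 13.7-fold in middle-aged 2, and TSS points stand above them in every library.

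Rank and width rose over the libraries in the order of their list lengths. The median percentile rank of intronic regions by −log10 q was 55.9, 64.5 and 46.0 in the young libraries and 65.7, 65.8 and 66.5 in the middle-aged ones, a difference of 10.5 (exact permutation test, p = 0.1). With equally long lists, the best 27628 peaks of each, the difference was -1.82 (exact permutation test, p = 0.1). The direction of the rank change thus turned with list length. The median width was 332, 362 and 297 bp in the young and 364, 366.5 and 369 bp in the middle-aged libraries, a difference of 36.2 bp (exact permutation test, p = 0.1) that was 19.5 bp without young 3. These regions took 15.4%, 12.6% and 19.9% of the peaks of the young lists and 11.4% to 11.9% of the middle-aged lists, as a fixed set must in lists of different length.

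Single regions were compared with limma on the log2 summit pileup of all 22403 shared regions, centered on each library's median over them. No intronic region passed an adjusted p (Benjamini-Hochberg) of 0.05 in either direction, against 0.00446% of all regions called higher in middle-aged, which is 1 intergenic region, and 0% called lower. At an unadjusted p under 0.05, 102 intronic regions (1.88%) were higher and 440 (8.12%) lower in middle-aged, a split that turned to 960 higher and 1 lower when libraries were scaled to their background. Over all 22403 regions of the centered fit these were 1701 (7.59%) higher and 1021 (4.56%) lower. TSS regions divided as 1434 (13.8%) higher and 131 (1.26%) lower, and intergenic regions as 150 (2.46%) and 416 (6.82%). The median log2 difference was -0.08 over intronic regions, 0.12 over TSS regions and 0.03 over all regions.

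The direction depended on what the libraries were scaled to. Scaled to the genome-wide background in place of the median, all regions shifted up, with a median log2 difference of 0.39, and 172 intronic regions were called higher and none lower by limma, beside 10.7% of all regions called higher. Relative to that shift the intronic median of 0.28 was still below the median of all regions. With quantile normalization 3 intronic regions were called lower, beside 8 of all regions (0.0357%). Without young 2, limma called 9 intronic regions lower, beside 24 of all (0.107%), and without young 3 it called 4, beside 8 of all (0.0357%). With the replicate number as a block it called 13 lower, beside 33 of all (0.147%), although the numbers were not found to pair the libraries.

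Values of the 3 regions with the smallest p in each direction are given, although none passed the adjusted threshold. Heights are in fold over background, and log2 differences are those of the centered fit. On the height scale the median over intronic regions also separated by age, with middle-aged above, as did those of intergenic and TSS regions. The share of all regions without overlap between groups was not counted. The first in each direction are shown as sequence, at chr7:105690980-105691129 (Dnhd1, higher) and chr1:183299226-183299375 (Aida, lower) on the plus strand of mm10. Capitals mark the PU.1/ETS match of the Dnhd1 window, and the Aida window held none of the motifs marked here.
Dnhd1: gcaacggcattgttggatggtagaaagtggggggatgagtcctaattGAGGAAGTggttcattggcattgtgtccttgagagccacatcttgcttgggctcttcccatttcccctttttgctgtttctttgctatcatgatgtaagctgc
Aida: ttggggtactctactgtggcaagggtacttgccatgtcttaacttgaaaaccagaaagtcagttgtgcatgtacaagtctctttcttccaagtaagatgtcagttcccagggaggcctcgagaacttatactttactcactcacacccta
The region in intron 19 of Dnhd1, a dynein heavy chain relative (chr7:105690887-105691239), had heights of 9.07, 7.07 and 6.68 in the young and 19.7, 17.1 and 13.2 in the middle-aged libraries. All middle-aged heights were above all young ones, with a log2 difference of 0.77 ± 0.22 (SE, limma adjusted p = 0.1499). The Aida region (chr1:183299081-183299648), 1676 bp from the TSS in intron 1 of a gene encoding an axin-binding protein, had heights of 74.1, 60.8 and 59.5 in the young and 57.1, 54.1 and 50.1 in the middle-aged libraries. Here every young height was above every middle-aged one, and the log2 difference was -0.62 ± 0.13 (SE, limma adjusted p = 0.0703, the lowest of the intronic regions).

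The region in Ptdss2, a phosphatidylserine synthase gene (chr7:141122902-141123604), had heights of 25.6, 36.0 and 30.4 in the young and 49.99, 52.5 and 51.9 in the middle-aged libraries, with a log2 difference of 0.40 ± 0.12 (SE, limma adjusted p = 0.181). The region in Lrig2, for a membrane protein with leucine-rich repeats (chr3:104441872-104442357), had 6.93, 15.2 and 10.3 against 21.6, 18.7 and 20.05, a log2 difference of 0.61 ± 0.19. Neither overlapped between groups on this scale. In the other direction, the region in intron 2 of Kctd16, for an auxiliary subunit of GABA-B receptors, had 39.5, 39.6 and 31.0 in the young and 36.2, 27.9 and 29.0 in the middle-aged libraries, which overlapped on this scale, with a log2 difference of -0.60 ± 0.14. The Atxn7l1 region (chr12:33156282-33156730) had 9.87, 9.54 and 13.4 against 9.05, 6.24 and 7.52, without overlap, at -0.88 ± 0.22.

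**Figure D5:**
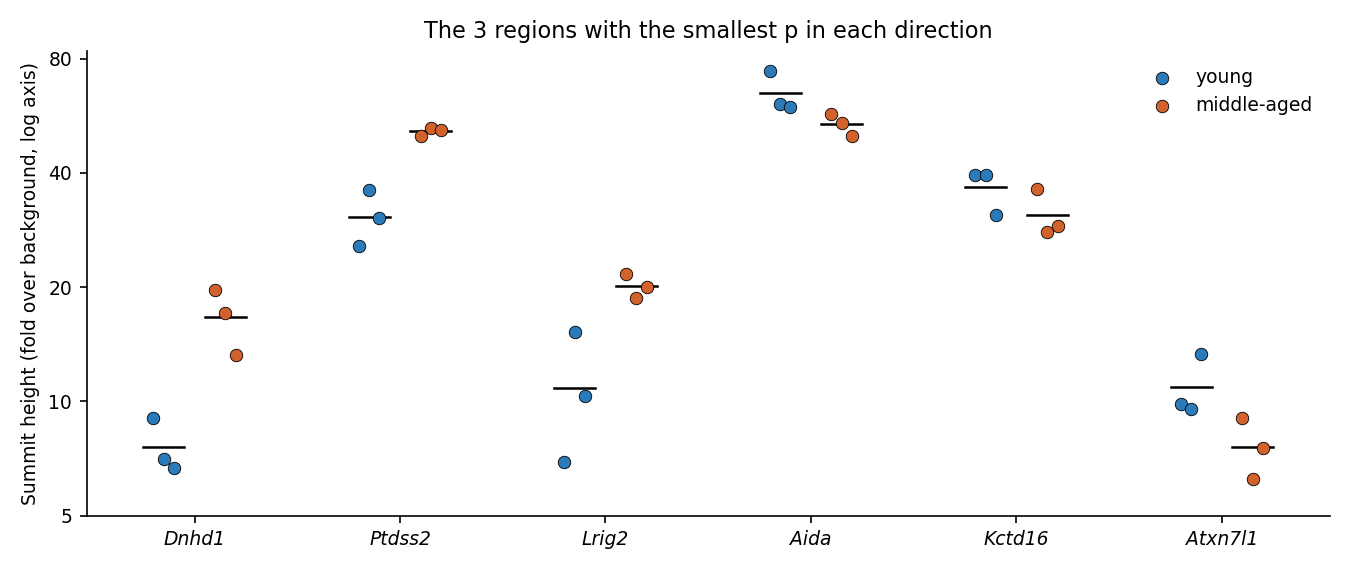
Summit height (y axis, fold over background, log axis) of the 3 intronic regions with the smallest p in each direction, named by host gene (x axis); points are libraries, blue young and orange middle-aged, and black lines are group means. The Dnhd1, Ptdss2 and Lrig2 points are separate by age, with middle-aged above, and the Kctd16 points overlap.

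The regions with an unadjusted p under 0.05 differed in sequence as well as direction, which is given as a description of sets chosen by their values. GC box letters stood in 25.5% of the 102 higher windows and 8.41% of the 440 lower ones, beside 9.58% of all 5418 intronic windows. PU.1/ETS letters stood in 9.80% and 17.5%, beside 15.9%, and AP-1 letters in 15.7% and 24.3%, beside 25.7%. The median base composition was 53.7% and 46.3% G and C, beside 48.7%. E-box letters stood in 32.4% and 19.8%, beside 23.0%, and TEAD letters in 8.82% and 4.77%, beside 4.96%. In each of these the lower windows lay closer to all intronic windows than the higher ones did. The split itself turned with the scaling, as given above.

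Log2 differences of regions in the same host gene lay on both sides of 0. The median SE of an intronic region was 0.20, and whether regions of a gene differed beyond this error was not tested. The 12 App regions had log2 differences from -0.61 to 0.56 with a median of -0.16, and 4 were above 0. Its region at chr16:84955492-84955813 had heights of 5.87, 9.54 and 7.89 in the young libraries against 16.9, 13.7 and 12.9, and that at chr16:84972013-84972495 had 7.47, 9.89 and 7.29 against 7.48, 7.91 and 5.37. On this scale the first was separate by age, as was the median over all intronic regions, and the second was not. The median height of the 12 was 12.7, 16.7 and 14.9 in the young and 15.7, 18.1 and 16.2 in the middle-aged libraries.

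In the other leading hosts the regions also lay on both sides of 0. The 17 Pde4d regions ran from -0.46 to 0.21 with a median of -0.06, and the 11 Fli1 regions from -0.46 to 0.41 with a median of 0.00152. The Fli1 region nearest the TSS (chr9:32540048-32540544) had heights of 7.73, 15.2 and 10.9 in the young and 16.9, 19.98 and 18.6 in the middle-aged libraries. These did not overlap on the background scale, on which the median over all intronic regions also separated. The limma adjusted p was 0.372. Tns3 had a median of 0.06 with 7 of 10 above 0, Fat3 of 0.11 with 6 of 10, Slc24a3 of -0.16 with 3 of 13 and Zfhx3 of -0.10 with 2 of 12. Maml3 and Elmo1 had medians of -0.06 and -0.09 with 2 of 10 each above 0, Nav2 of -0.06 with 6 of 14, and Fhit of -0.12 with 2 of 10. Over all intronic regions the median was -0.08. The lowest adjusted p among the regions of the 12 leading genes was 0.219, in App.

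For the gene lists the values were as follows. Median log2 differences were -0.07 over the 36 Notch regions, with 10 above 0, -0.17 over the 27 TGF-beta, Hippo and AP-1 regions, with 5 above 0, and -0.02 over the 48 actin, adhesion and matrix regions, with 23 above 0. Chondrocyte regions had the lowest median of the lists, -0.19, with 4 of 15 above 0, and adipocyte regions had -0.17, with 3 of 14. Osteoblast regions had -0.04 with 4 of 12, SSPC and niche regions -0.10 with 1 of 5, and endothelial regions -0.08 with 1 of 6. Myeloid regions had -0.06 with 13 of 37, other blood regions -0.02 with 9 of 18 and neuronal regions -0.08 with 9 of 24, beside -0.08 over all intronic regions. No region in any of these lists passed the adjusted threshold in the limma fit.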

How the data were processed

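Peak lists of 6 ATAC-seq libraries were used, 1 list per library, on mm10. The authors aligned reads with Bowtie2, removed duplicates with Sambamba and called peaks with MACS on each library alone; whether reads were shifted for the transposase is not given in the sources used here. The deposited score is a whole-number form of −log10 q, and the deposited fold enrichment is the ratio of summit pileup to local background, each with 1 added. The authors also deposited the −log10 of the p-value and of the q-value. The authors' differential comparison with DiffBind needs reads and was not repeated. Depth as a read number is unknown; the pileup at each summit was solved from fold enrichment and −log10 p under the Poisson model of the caller (100% of peaks gave a whole pileup, to within 0.001 in −log10 p), and the lowest background of a list, in reads extended to 200 bp, served as relative depth. Read counts per region were not used here, so no counting intervals are given.

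Groups and replicate numbers came from the sample titles. Peaks were merged at 1 bp of overlap and placed by midpoint against GENCODE M21. Eligible intron is intron sequence more than 1 kb from a protein-coding TSS, sampled every 100 bp. Library medians were compared by exact permutation over 20 assignments of libraries, and regions by limma 3.58.1 in R 4.3.3 on all 22403 shared regions. The fit was tested on simulated data, only with log2 changes larger than those of the regions named here. Its power for changes of the size seen here was not tested. Motifs and base composition were read from GRCm38 in windows of 300 bp with Python 3.11.15. The regions, gene lists and motifs were chosen with earlier results of these data known. Named are the 12 genes with most regions, ties going to the higher density, the 6 highest regions, the 3 regions with the smallest p in each direction (none passed the adjusted threshold), the 3 genes of each list with most regions (more where the third place was tied, fewer where fewer hosted any) and the 6 densest genes with at least 5. The individual regions of App and Fli1, Fhit, and the marker genes named for their TSS peaks were chosen after their values were seen. Settings varied were a stricter −log10 q (5 or more), 100 bp of overlap, 5 kb from a TSS, equally long lists, placing by summit, other scalings and measures, a replicate block and leaving out each library.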

Additional observations from a re-analysis of the deposited data

How the results depend on the processing

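With equally long lists the rank difference turned to -1.82, while height, width and the intron to TSS difference kept their direction under every alternative run for them. No intronic region was called higher by limma under any alternative except scaling to the genome-wide background, which called 172. Regions called lower numbered 0 with all libraries, 3 with quantile normalization, and 0 to 9 when a library was left out. Leaving out a library gave a height difference of 0.17 to 0.39, a rank difference of 5.83 to 15.04, a width difference of 19.5 to 52 bp, an intron to TSS difference of -0.20 to -0.14 and 5482 to 7435 regions. The number of shared intronic regions was 4653 at a −log10 q of at least 5, 4622 beyond 5 kb, 3739 with equally long lists, 5416 at 100 bp of overlap and 5435 when placed by summit. The cause of these changes was not tested.

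Same-numbered replicates did not deviate together, with correlations across regions of -0.000326, 0.05 and -0.00478, so the numbers were not found to pair the libraries. Whether libraries shared a preparation was not tested. With the replicate block limma called 13 intronic regions lower and 0 higher, beside 33 lower and 41 higher of all 22403 regions, and the 4 library differences kept their values with a smallest possible exact p of 0.25. Precision is limited by 3 libraries per group, and a median pileup of 19 reads in young 3, against 33 to 36 in the others, makes its heights the coarsest.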
